A study of Mus musculus with 9 samples.

Results

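Genes of glucose breakdown and oxygen sensing that are often high in dividing cells, 10 in all, were followed through liver regeneration in bulk RNA-Seq of whole mouse liver. The genes were taken by name from the deposited gene table: *Hk2*, *Pfkl*, *Pfkfb3*, *Aldoa*, *Pgk1*, *Eno1*, *Pkm*, *Ldha*, *Slc2a1* and *Vegfa*. All 10 were found among the 43346 genes listed, and all 10 were among the 15024 genes with enough counts to be tested. Male C57BL/6J mice, 12 weeks old by the labels, underwent 70% partial hepatectomy, in which named lobes are tied off and removed and the remnant regrows. The 9 libraries fell into 3 groups of 3: liver resected at surgery from vehicle-treated mice (baseline, 0 h), the remnant of vehicle-treated mice at 40 h, and the remnant of mice given NSC-87877 (NSC) at 40 h. Vehicle was normal saline given i.p., and NSC, a small-molecule inhibitor of the phosphatase SHP2 that also inhibits SHP1, was injected at 7.5 mg/kg each time and 15 mg/kg per day. The first dose preceded surgery by 12 h in the labels, while the methods place it 1 day before. All animals were WT and every remnant came from a mouse that had been operated on, so neither an unoperated liver at 40 h nor an NSC-treated baseline was analysed here. Both 40 h groups were therefore compared with the same 3 vehicle baseline livers. The sources used here do not say if equal replicate numbers at 0 h and 40 h mean 1 mouse.

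Glycolysis turns glucose into pyruvate, which lactate dehydrogenase can reduce to lactate. The resting hepatocyte uses liver-specific proteins for several of these steps, such as liver pyruvate kinase (*Pklr*) and the carrier GLUT2 (*Slc2a2*), and it can run much of the pathway backward to release glucose. Dividing cells and many tumors rely instead on hexokinase 2, aldolase A, pyruvate kinase M and GLUT1. Most of the 10 genes are also textbook targets of the hypoxia-inducible factors (HIFs), as is *Vegfa*, the growth factor that drives endothelial cells to divide.

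Libraries held between 23997363 and 42887589 counts assigned to genes. The liver identity of the samples was plain, since the 9 measured hepatocyte markers summed to between 103216 and 146472 in every library on the CPM scale (counts scaled to the library total) and *Alb* alone lay between 75127 and 103465 CPM. Cell division marked the remnants, with *Mki67* at most 1.37 CPM at baseline and at least 61.2 CPM at 40 h. Among the libraries 2 stood apart: NSC replicate 1 had the lowest *Mki67* of the remnants (61.2 CPM, against 239 and 160 in the other NSC livers), and baseline replicate 2 had the highest *Pklr* (656 CPM). A further property moved with the comparisons. Log2 fold change was related to the GC content of the transcript, with a Spearman rho over 14900 genes of -0.125 for vehicle against baseline, -0.41 for NSC against baseline and -0.56 for NSC against vehicle, and GC-rich genes were the lower ones. The transcripts of the 10 genes held 49.7% to 57.7% GC, all above the median of the tested genes, 49.66%. A fit with a GC correction is therefore given beside the results. The correction removes the trend by construction, and rho was then between -0.015 and 0.011. It would also remove a true group difference that follows GC content, and the origin of the trend was not tested. Each level below is CPM after TMM scaling unless FPKM, which also divides by gene length, is named, and a gene was called when its edgeR quasi-likelihood p, adjusted by the Benjamini-Hochberg method over all 15024 genes, was under 0.05.

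The promoters of 4 genes that the results turn on are shown because HIFs bind the core letters ACGTG or GCGTG. Each run is the RefSeq (GRCm38.p6) sequence from 250 bases before to 50 bases after the start site, 5′ to 3′ on the gene's strand, with every match to ACGTG or GCGTG on either strand in capitals, so that a match on the opposite strand reads CACGT or CACGC. The windows were chr7:46845554-46845853 on the plus strand for *Ldha*, chr6:82774405-82774704 on the minus strand for *Hk2*, chr9:59656326-59656625 on the plus strand for *Pkm* and chr17:46032328-46032627 on the minus strand for *Vegfa*.
Ldha: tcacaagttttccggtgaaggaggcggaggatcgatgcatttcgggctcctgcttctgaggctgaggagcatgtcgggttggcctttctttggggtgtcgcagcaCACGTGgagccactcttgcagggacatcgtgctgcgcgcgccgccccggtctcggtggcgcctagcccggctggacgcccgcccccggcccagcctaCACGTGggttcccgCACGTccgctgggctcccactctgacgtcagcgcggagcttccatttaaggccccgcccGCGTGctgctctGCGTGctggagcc
Hk2: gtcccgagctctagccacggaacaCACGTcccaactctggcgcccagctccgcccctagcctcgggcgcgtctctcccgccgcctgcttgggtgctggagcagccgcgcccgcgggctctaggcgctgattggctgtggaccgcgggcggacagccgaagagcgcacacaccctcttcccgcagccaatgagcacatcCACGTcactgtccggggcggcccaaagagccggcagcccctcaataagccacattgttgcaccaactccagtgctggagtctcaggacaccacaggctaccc
Pkm: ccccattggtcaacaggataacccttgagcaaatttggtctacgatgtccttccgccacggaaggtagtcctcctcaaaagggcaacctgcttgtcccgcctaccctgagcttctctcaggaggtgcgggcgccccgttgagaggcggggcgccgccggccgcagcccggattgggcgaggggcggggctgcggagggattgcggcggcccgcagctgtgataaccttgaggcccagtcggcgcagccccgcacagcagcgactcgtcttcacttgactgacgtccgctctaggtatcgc
Vegfa: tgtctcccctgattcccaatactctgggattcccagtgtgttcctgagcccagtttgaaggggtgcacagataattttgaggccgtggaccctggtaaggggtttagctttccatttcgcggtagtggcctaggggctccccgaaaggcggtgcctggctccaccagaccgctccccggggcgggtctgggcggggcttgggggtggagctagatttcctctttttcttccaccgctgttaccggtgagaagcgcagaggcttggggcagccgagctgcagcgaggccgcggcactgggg
*Ldha* held the most matches, 5 of ACGTG and 2 of GCGTG, of which 4 were the 2 strands of 2 palindromic CACGTG sites, a letter string that is also the E-box. Its RefSeq start lay 4329 bases inside the longer gene model of the deposited table. *Hk2* held 2 matches of ACGTG, and neither *Pkm* nor *Vegfa* held any within this window, which says only that these letters are not there. Among the 10 genes, 7 had at least 1 match (*Hk2*, *Pfkl*, *Pfkfb3*, *Pgk1*, *Eno1*, *Ldha* and *Slc2a1*). The share was 61.4% among the 10731 promoters of tested genes and 48.7% among all 19011 promoters, so 7 of 10 was near the background.

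The 10 transcripts differed widely in FPKM. *Ldha*, which encodes the main lactate dehydrogenase subunit of liver, was the highest in all 3 groups, at 315 ± 32.4 FPKM at baseline, 544 ± 57.1 in vehicle remnants and 529 ± 27.5 in NSC remnants (SD, n = 3). *Pgk1* and *Eno1* came next in every group, at 102 ± 6.37 and 64.7 ± 6.34 FPKM at baseline. *Hk2* was the lowest in every group, at 0.126 ± 0.066 FPKM at baseline. The order between these ends changed, since at baseline *Vegfa* (40.4 ± 4.86 FPKM) stood above *Aldoa* (28.7 ± 0.972 FPKM), whereas in vehicle remnants *Vegfa* (22.5 ± 2.12 FPKM) stood below *Aldoa* (32.4 ± 1.80 FPKM), with no overlap between livers in either group. *Pkm* passed *Pfkl* in the same way, from 5.02 ± 0.504 against 9.49 ± 1.47 FPKM at baseline to 14.1 ± 1.52 against 7.66 ± 1.73 FPKM in vehicle remnants. Neighbors whose ranges overlapped were *Pkm* and *Slc2a1*, and *Slc2a1* and *Pfkfb3*, at baseline, *Slc2a1* and *Pfkfb3* in vehicle remnants, and *Aldoa* and *Vegfa*, and *Pfkl* and *Slc2a1*, in NSC remnants. *Ldha* made up 51.9% to 57.8% of the summed FPKM of the 10 genes at baseline, 68.1% to 70.5% in vehicle remnants and 69.7% to 74.1% in NSC remnants, so the *Ldha* share of every remnant lay above that of every baseline liver.

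**Figure D1:**
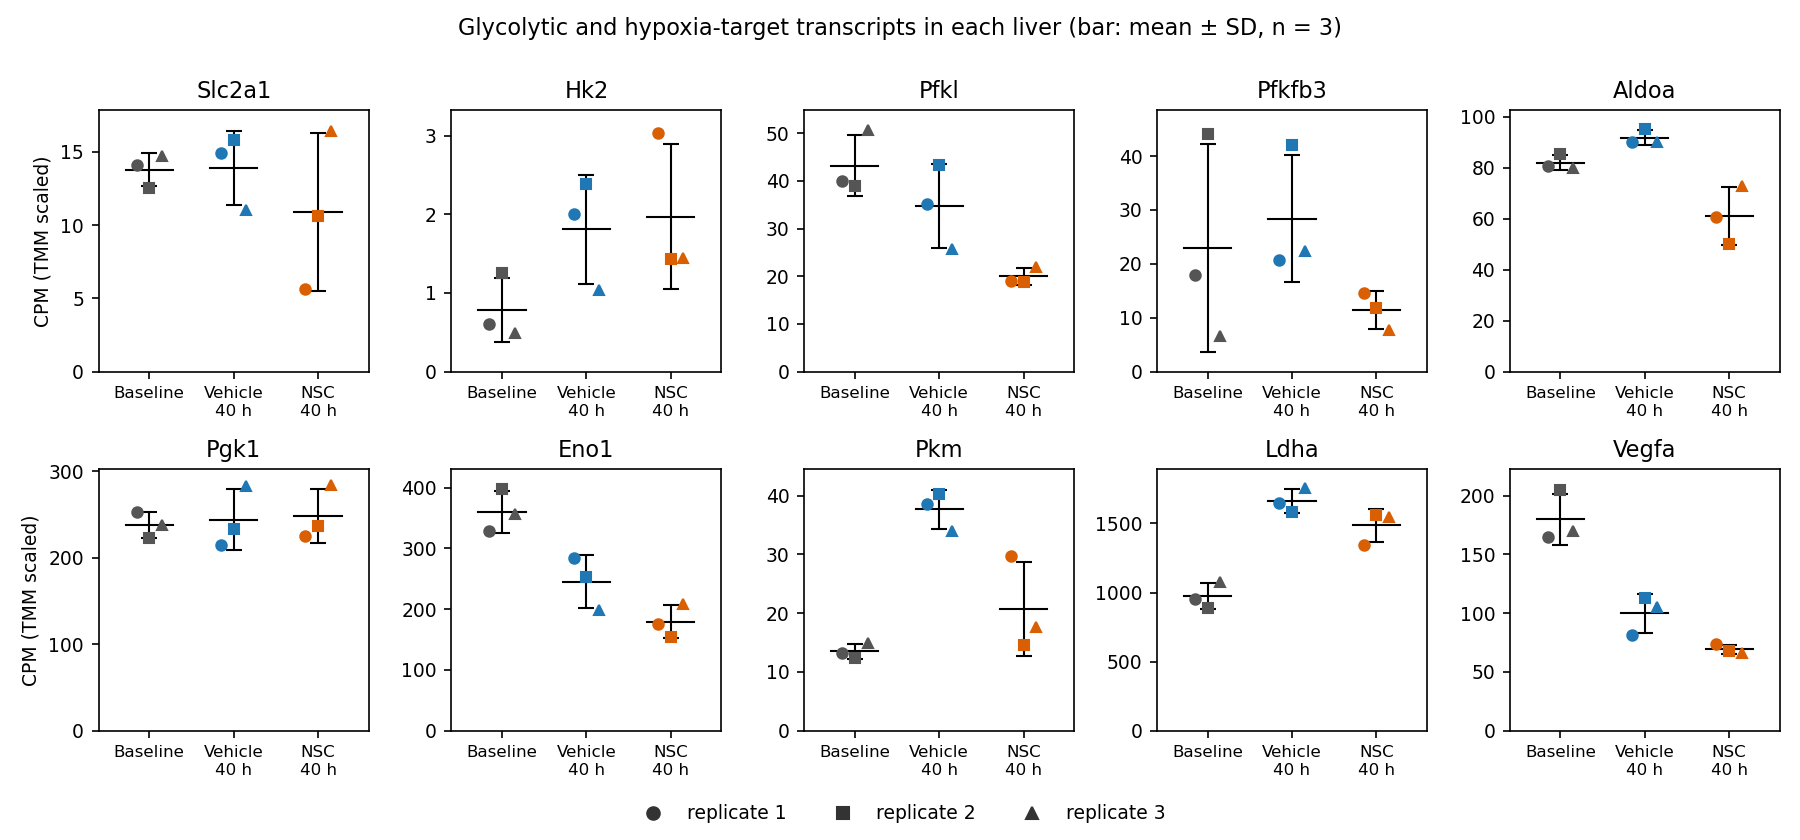
Level of each of the 10 genes in each liver, in TMM-scaled CPM on a linear axis from 0, with a symbol per replicate and the mean and SD of the 3 livers of a group. Vehicle remnants lay at 34.0 to 40.3 CPM of *Pkm* against 12.4 to 14.9 at baseline. NSC replicate 1 stood apart from the other NSC livers for *Hk2* and *Pkm*, and *Vegfa* was lower in all 6 remnants than in all 3 baseline livers.

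Vehicle remnants were compared with baseline to see which of these genes moved after hepatectomy without NSC. Remnant and baseline also differ in lobe, in time of sampling and in having gone through surgery, which cannot be told apart from regeneration here. Of the members at the 2 last steps of the pathway, *Pkm* rose 2.78-fold and *Ldha* rose 1.71-fold. The liver gene of the *Pkm* step, *Pklr*, fell, as given below. *Eno1*, 1 step before *Pkm*, fell 1.47-fold and *Vegfa* fell 1.80-fold. The remaining 6 of the 10 genes did not pass the test. Among all 15024 genes 12.7% were called higher and 11.0% lower in this comparison, against 2 of 10 and 2 of 10 here. The median log2 fold change of the 10 genes was 0.10 and that of all tested genes 0.01, with 3 of the 10 lower against 49.0% of all genes. No member was called when an absolute log2 fold change over 1.5 was required as well.

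The NSC remnants were compared with the same baseline livers. *Ldha* rose 1.53-fold and *Hk2* 2.51-fold, and 4 genes fell: *Vegfa* 2.59-fold, *Pfkl* 2.16-fold, *Eno1* 2.01-fold and *Aldoa* 1.34-fold. The background was 18.2% of genes called higher and 16.5% called lower, against 2 of 10 and 4 of 10. The median of the 10 was -0.38, with 6 lower, and that of all tested genes 0.01, with 49.2% lower. With the GC correction the median of the 10 was -0.15, *Pkm* was called higher in addition and *Aldoa* was no longer called, giving 3 called in each direction. Without baseline replicate 1 only 3 members were called, and without NSC replicate 3 there were 8.

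**Figure D2:**
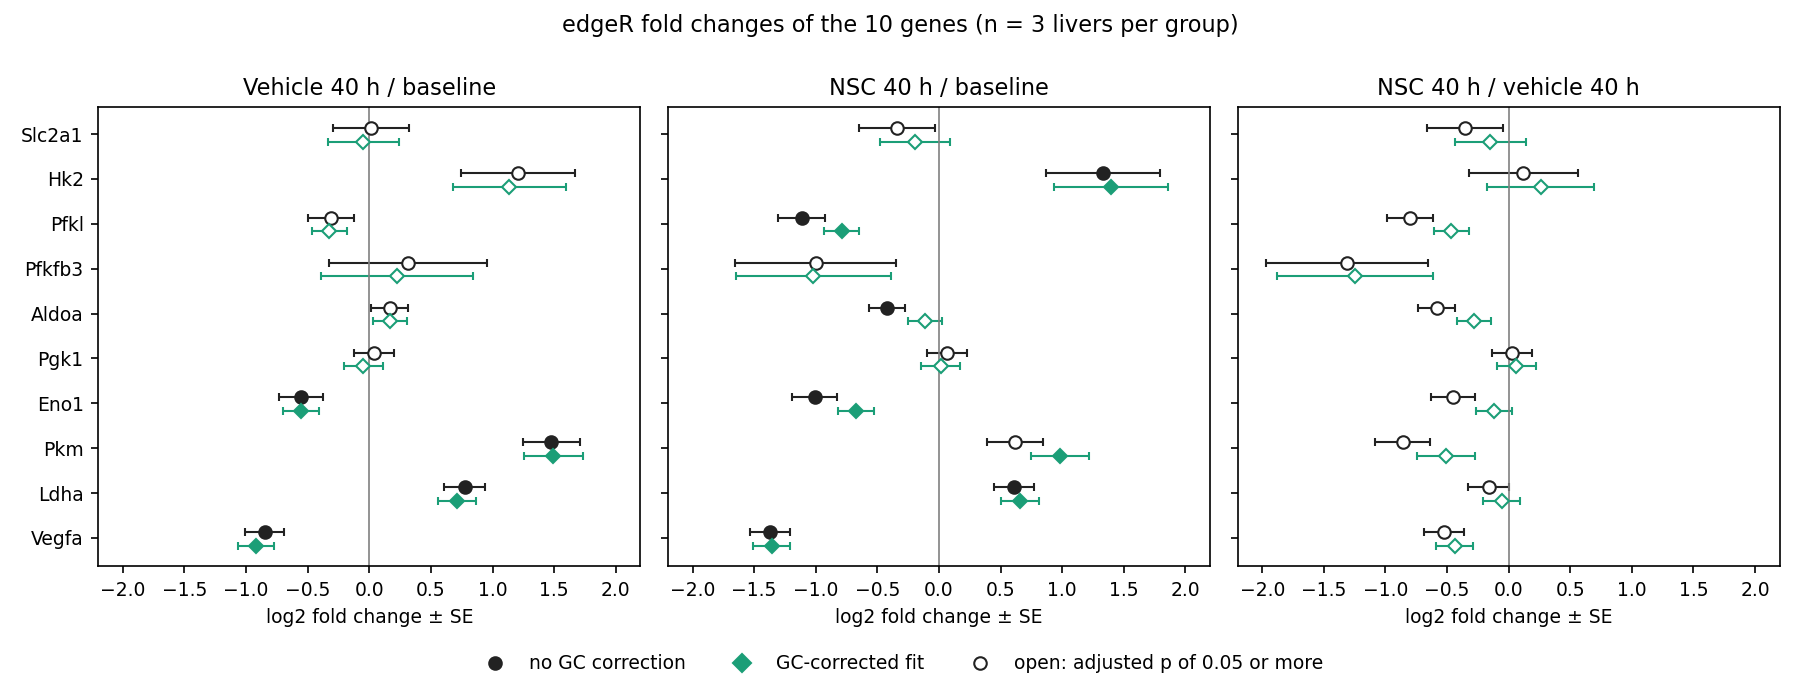
Log2 fold change ± SE of the 10 genes in the 3 comparisons (n = 3 livers per group), from the edgeR fit without (circles) and with (diamonds) the GC correction, filled where the adjusted p was under 0.05. *Ldha*, *Eno1* and *Vegfa* were called in both comparisons with baseline, no gene was called between NSC and vehicle, and the direct differences of *Pfkl*, *Aldoa*, *Eno1* and *Pkm* lay nearer 0 with the correction.

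Glucose entry was described by the carrier and the kinase that traps glucose in the cell. *Slc2a1*, encoding GLUT1, lay at 14.1, 12.5 and 14.7 CPM at baseline, 14.9, 15.8 and 11.0 CPM in vehicle remnants and 5.67, 10.6 and 16.4 CPM in NSC remnants. The groups overlapped, and its log2 fold change was 0.01 (95% interval -0.66 to 0.69) with vehicle and -0.34 (-1.02 to 0.34) with NSC against baseline. *Hk2*, the hexokinase of muscle, fat and many tumors, lay at 0.600, 1.25 and 0.495 CPM at baseline, 2.00, 2.38 and 1.03 CPM in vehicle remnants and 3.03, 1.43 and 1.45 CPM in NSC remnants. All NSC livers stood above all baseline livers, whereas vehicle replicate 3 lay below baseline replicate 2. The log2 fold change was 1.33 ± 0.46 (SE) with NSC (adjusted p = 0.0429) and 1.21 ± 0.46 with vehicle, which did not pass (adjusted p = 0.0769). The 2 values did not differ beyond their error, since NSC against vehicle gave 0.12 (95% interval -0.84 to 1.07). Counts behind *Hk2* were low, 15 to 41 per baseline library. The NSC call was lost without NSC replicate 1 (0.87, adjusted p = 0.156), without baseline replicate 1 or 3, without vehicle replicate 1 or 2, and in a fit of only the 2 groups (adjusted p = 0.0605), and the vehicle difference was called without baseline replicate 2 (1.73, adjusted p = 0.0319) or without NSC replicate 1 (adjusted p = 0.0366).

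The committed step is set by phosphofructokinase and its activator. *Pfkl*, the liver subunit of phosphofructokinase-1, lay at 40.0, 39.0 and 50.6 CPM at baseline, 35.1, 43.4 and 25.7 CPM in vehicle remnants and 19.0, 18.9 and 22.0 CPM in NSC remnants. Every NSC liver was below every liver of the other groups, while vehicle and baseline livers overlapped. The fall with NSC was 1.11 on the log2 scale (SE 0.19, adjusted p = 0.00118) and 0.79 with the GC correction (adjusted p = 0.00233), and the vehicle value of -0.31 did not pass (adjusted p = 0.249). *Pfkfb3*, which makes the activator fructose 2,6-bisphosphate, was the most variable of the 10 genes at baseline, at 18.0, 44.2 and 6.53 CPM, with baseline replicate 2 the highest. Vehicle remnants held 20.8, 42.0 and 22.4 CPM and NSC remnants 14.6, 11.9 and 7.75 CPM. The 3 NSC livers were below the 3 vehicle livers and within the baseline range, and no comparison passed: log2 fold change was 0.31 with vehicle (adjusted p = 0.768) and -1.0 with NSC (adjusted p = 0.273).

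Among the steps that follow, aldolase A fell with NSC, enolase 1 fell in both remnant groups and phosphoglycerate kinase did not pass the test in either. *Aldoa*, which splits fructose 1,6-bisphosphate, lay at 80.9, 85.2 and 79.8 CPM at baseline, 90.1, 95.4 and 90.0 CPM in vehicle remnants and 60.8, 49.9 and 72.8 CPM in NSC remnants. Vehicle livers were all above and NSC livers all below the baseline range. The fall with NSC was 0.42 on the log2 scale (SE 0.15, adjusted p = 0.0455), the vehicle value of 0.16 did not pass (adjusted p = 0.458), and with the GC correction the NSC value was -0.11 (adjusted p = 0.562). The NSC call was also lost in 12 other alternatives, 8 of which left out 1 library. *Pgk1*, which makes the first ATP of the pathway, lay between 215 and 284 CPM in all 9 livers. Its log2 fold change was 0.03 (95% interval -0.32 to 0.39) with vehicle and 0.06 (-0.29 to 0.41) with NSC against baseline.

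*Eno1*, which makes phosphoenolpyruvate, lay at 328, 397 and 356 CPM at baseline, 285, 253 and 198 CPM in vehicle remnants and 176, 154 and 208 CPM in NSC remnants. All 6 remnants were below all baseline livers, and the 40 h groups overlapped. The fall was 0.56 on the log2 scale with vehicle (SE 0.18, adjusted p = 0.0425) and 1.01 with NSC (SE 0.18, adjusted p = 0.00159), or 0.55 and 0.67 with the GC correction. The vehicle call was close to the threshold and was lost in 8 alternatives, among them library size scaling (adjusted p = 0.0683) and leaving out any baseline library, vehicle replicate 2 or 3 or NSC replicate 2. Reads of the near-identical *Eno1b* and *Pgk1-rs7* could be split from their parent genes, and these held 1.33% and 1.04% as many counts as *Eno1* and *Pgk1*.

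At the formation of pyruvate and lactate, *Pkm* rose with vehicle and *Ldha* rose in both remnant groups. *Pkm* encodes the M1 and M2 forms of pyruvate kinase, which the gene-level counts do not separate, and M2 is the form of dividing cells. It lay at 13.2, 12.4 and 14.9 CPM at baseline, 38.7, 40.3 and 34.0 CPM in vehicle remnants and 29.8, 14.6 and 17.7 CPM in NSC remnants. The vehicle livers were above all other livers, and among NSC livers replicate 1 stood close to vehicle while replicates 2 and 3 stood close to baseline. The rise with vehicle was 1.48 on the log2 scale (SE 0.23, adjusted p = 0.00106). With NSC the value was 0.62 (SE 0.23), which did not pass (adjusted p = 0.0528). That call turned on the setting, since it passed with the GC correction (0.98, adjusted p = 0.011), DESeq2 (adjusted p = 0.0479), library size scaling (adjusted p = 0.028), either other filter on low counts, or without NSC replicate 2 or 3, but not with RLE factors (adjusted p = 0.0549), whereas without NSC replicate 1 the value was 0.26 (adjusted p = 0.229). *Ldha* lay at 955, 889 and 1077 CPM at baseline, 1648, 1586 and 1757 CPM in vehicle remnants and 1348, 1562 and 1547 CPM in NSC remnants. All remnants were above all baseline livers, with rises of 0.77 (SE 0.16, adjusted p = 0.00569) and 0.61 (SE 0.16, adjusted p = 0.0131) on the log2 scale. The NSC call of *Ldha* was lost without baseline replicate 1 (adjusted p = 0.053) or 2 (adjusted p = 0.0601).

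*Vegfa*, the secreted hypoxia target of the group, lay at 165, 205 and 170 CPM at baseline, 81.5, 113 and 105 CPM in vehicle remnants and 73.8, 67.9 and 66.5 CPM in NSC remnants. The 3 groups did not overlap. The fall was 0.85 on the log2 scale with vehicle (SE 0.16, adjusted p = 0.00304) and 1.37 with NSC (SE 0.16, adjusted p = 0.000146). *Vegfa* stayed called in both comparisons under all 17 alternatives to the fit, leaving out each library included. In bulk samples, fewer cells of a type and less RNA per cell cannot be told apart, and this holds for every level given here.

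The 2 groups of remnants were compared directly to see where NSC and vehicle differed. No member passed the adjusted threshold, where 0.0399% of all genes did (6 genes). At an unadjusted p under 0.05 there were 5 members, all lower with NSC: *Pfkl*, *Aldoa*, *Pkm*, *Vegfa* and *Eno1*. Of all genes 10.2% were lower at that level. With the GC correction 2 of the 5 remained, *Pfkl* and *Vegfa*, against 5.10% of all genes. The median of the 10 was -0.49 on the log2 scale (8 lower) against 0.02 for all genes (48.5% lower), and -0.21 (8 lower) against 0.03 with the correction.

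*Pfkl* differed by -0.80 (95% interval -1.21 to -0.39, adjusted p = 0.0898) and by -0.47 after the GC correction. *Pkm* differed by -0.86 (-1.35 to -0.37, adjusted p = 0.099) and by -0.51 after it, and the NSC livers ran from 14.6 to 29.8 CPM. *Aldoa* differed by -0.59 (-0.91 to -0.26, adjusted p = 0.0949) and by -0.28 after it. These 3 genes were called lower with NSC by DESeq2 (adjusted p = 0.0135, 0.0252 and 0.0199 for *Pfkl*, *Pkm* and *Aldoa*). *Vegfa* differed by -0.52 (-0.87 to -0.18, adjusted p = 0.129), with -0.44 after the correction, and *Eno1* by -0.45 (-0.84 to -0.06, adjusted p = 0.202), with -0.12. For the other genes the intervals were -0.52 to 0.19 for *Ldha*, -0.33 to 0.38 for *Pgk1*, -1.03 to 0.32 for *Slc2a1* and -2.85 to 0.22 for *Pfkfb3*. NSC replicate 1 weighed on this comparison: without it *Pkm* (-1.22, adjusted p = 0.00134) and *Pfkl* (-0.77, adjusted p = 0.0479) were called, as were 994 genes in all.

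Next, 7 of the genes were each set against another gene for the same step, in most pairs the liver form, as a share of the pair's summed FPKM within a liver. This measure does not depend on scaling between libraries, but it was not corrected for GC content. The clearest shift was in pyruvate kinase. *Pkm* made up 8.58%, 2.31% and 9.88% of *Pkm* plus *Pklr* at baseline, 45.6%, 50.5% and 49.1% in vehicle remnants and 37.4%, 31.4% and 33.7% in NSC remnants. The 3 groups did not overlap, and the mean share rose by 41.4 percentage points with vehicle and by 27.3 with NSC, in each case the smallest two-sided p that an exact permutation test of 3 against 3 allows (p = 0.1). *Pklr* itself fell 6.64-fold with vehicle (adjusted p = 0.00898) and 6.89-fold with NSC (adjusted p = 0.00568), from 175, 656 and 170 CPM at baseline to between 39.8 and 62.1 CPM in the remnants. Without baseline replicate 2, the highest, the fall was 3.43-fold and 3.56-fold and stayed called. The shift was thus made of a rise of *Pkm* and a fall of *Pklr* with vehicle, and the 2 remnant groups did not differ by a call in *Pklr* (-0.05, 95% interval -1.23 to 1.12). Over the 7 pairs and 3 comparisons computed, no p, raw or adjusted, can fall below 0.1, so these are differences in value with no call.

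*Slc2a1* was 3.71% to 9.26% of *Slc2a1* plus *Slc2a2* at baseline, 10.6% to 25.6% in vehicle remnants and 4.13% to 18.1% in NSC remnants, with NSC livers overlapping both other groups. *Slc2a2* had log2 fold changes of -1.58 and -1.32, which did not pass (adjusted p = 0.0555 and 0.0747) and passed with the GC correction (adjusted p = 0.0331 and 0.029) or without vehicle replicate 1 (adjusted p = 0.012 and 0.0239, a fall of 4.59-fold and 2.49-fold). In 2 other pairs the gene held nearly all of the sum in every liver, *Ldha* at least 99.4% of *Ldha* plus *Ldhb* and *Eno1* at least 94.1% of *Eno1* plus *Eno3*. *Pfkfb3* was 5.87% to 17.3% of *Pfkfb3* plus *Pfkfb1* at baseline, 13.7% to 20.3% in vehicle remnants and 5.33% to 11.0% in NSC remnants, so only the 2 remnant groups did not overlap.

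**Figure D3:**
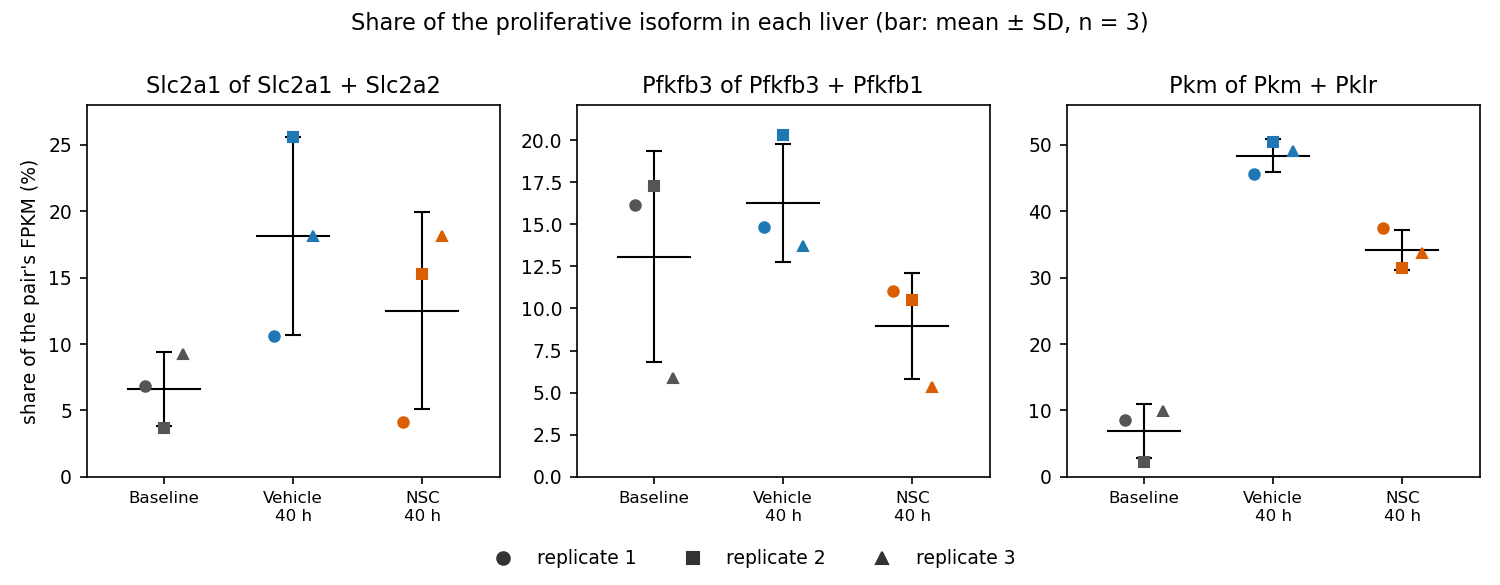
Share of the first gene in the summed FPKM of each pair, in percent on a linear axis from 0, with a symbol per replicate and the mean and SD of the 3 livers of a group. *Pkm* went from at most 9.88% at baseline to at least 45.6% in vehicle remnants with NSC remnants between, while the *Slc2a1* share of NSC remnants (4.13% to 18.1%) overlapped both other groups and the *Pfkfb3* share of NSC remnants lay below that of vehicle remnants.

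For the wider lists that follow, the background is the 12.7% of all genes called higher and 11.0% called lower with vehicle, and 18.2% and 16.5% with NSC. Of 15 other glycolysis genes tested, 6 fell and none rose with vehicle, and 8 fell and 1 rose with NSC. Among the genes called with vehicle were *Pfkm*, the muscle phosphofructokinase subunit (-1.12 on the log2 scale), and *Eno3*, the muscle enolase (-1.01). With NSC *Pfkm* (-1.40), the brain aldolase *Aldoc* (-1.85) and *Eno3* (-1.14) led, and *Bpgm*, which makes 2,3-bisphosphoglycerate, was the gene that rose (0.46), a call lost without any 1 of the 3 baseline libraries or without NSC replicate 2 or 3. The median of the 15 was -0.46 with vehicle and -0.62 with NSC.

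Genes that steer the pathway moved in both directions. Of 9 kinases and regulators, 1 rose and 3 fell in each remnant group. The pyruvate dehydrogenase kinases, which inhibit pyruvate dehydrogenase, were split. *Pdk1*, a HIF target, fell by 2.02 in vehicle and 1.77 in NSC remnants on the log2 scale (adjusted p = 0.000877 and 0.0011). *Pdk2* fell by 1.41 and 2.01, and *Pdk3*, at 0.198 to 0.275 CPM at baseline, rose by 2.10 and 2.21. Counts behind *Pdk3* were low, since 3 counts equal 0.0916 to 0.0989 CPM in a baseline library. Of 7 carriers tested, 2 rose and none fell with vehicle, and 1 rose and 2 fell with NSC, the latter 3 becoming 1 without baseline replicate 2. With the GC correction 2 rose and 2 fell in each comparison. *Slc16a1*, which carries lactate across the membrane, was called in both and lay at 45.8, 19.8 and 41.0 CPM at baseline, 124, 87.5 and 109 CPM in vehicle remnants and 127, 136 and 105 CPM in NSC remnants, rising 3.01-fold and 3.46-fold (adjusted p = 0.00231 and 0.000858). *Slc16a3*, the lactate exporter of glycolytic cells and a HIF target, rose from 0.0916 to 0.411 CPM at baseline to 1.15 to 1.71 CPM in vehicle remnants (adjusted p = 0.0046), on 3 to 13 counts per baseline library, and was 0.352 to 0.99 CPM in NSC remnants (adjusted p = 0.0722). Without baseline replicate 1 its log2 fold change with vehicle went from 2.70 to 3.49, and NSC was called (2.21, adjusted p = 0.0265). The fructose and urate carrier *Slc2a9* (-0.57) and *Slc2a8* (-0.90) fell with NSC, the latter not with the GC correction (adjusted p = 0.203).

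The reverse pathway was represented by 5 gluconeogenesis enzymes, of which 2 fell and 1 rose with vehicle, and 4 fell and 1 rose with NSC. The 3 calls with vehicle became 1 without any 1 of the baseline libraries, since those of *Pck1* and *Pck2* were lost, and the NSC call of *Pck2* was lost there too. *G6pc*, the phosphatase that frees glucose, fell 4.09-fold with vehicle and 6.06-fold with NSC (adjusted p = 0.000909 and 0.000173). *Pck1*, cytosolic phosphoenolpyruvate carboxykinase, fell 1.79-fold and 3.92-fold (adjusted p = 0.0307 and 0.000271), and its 3 NSC livers (1058 to 1481 CPM) were below its 3 vehicle livers (1684 to 3159 CPM), with a direct difference of -1.13 (adjusted p = 0.0849). Pyruvate carboxylase (*Pcx*) fell by 1.18 with NSC, and the mitochondrial carboxykinase *Pck2* rose by 1.37 and 1.16.

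Of 23 other hypoxia targets tested, 4 rose and 5 fell with vehicle, and 2 rose and 2 fell with NSC, with medians of -0.08 and -0.19 on the log2 scale. With the GC correction the counts were 4 and 7 with vehicle and 1 and 6 with NSC, and without NSC replicate 1 the 4 calls with NSC became 7. *Hmox1*, heme oxygenase 1, rose 2.84-fold and 2.46-fold (adjusted p = 0.000619 and 0.000916). The collagen hydroxylase *P4ha1* rose by 1.23 with vehicle. The oxidase *Ero1l* rose by 0.75 with vehicle (adjusted p = 0.0192) and by 0.72 with NSC, the latter 0.22 with the GC correction (adjusted p = 0.336). Its vehicle call was lost without baseline replicate 2 or 3 or vehicle replicate 1 or 3. Its NSC call was lost without baseline replicate 3 or NSC replicate 2. On the other side, *Ddit4*, an inhibitor of mTORC1, fell 6.04-fold and 3.54-fold (adjusted p = 0.000583 and 0.00202). With vehicle the mitophagy gene *Bnip3* fell by 1.30 and the glycogen branching enzyme *Gbe1* by 0.96. The lipoprotein receptor *Vldlr* fell by 1.81 with vehicle (adjusted p = 0.0247) and by 2.10 with NSC, the latter 3.28 without NSC replicate 1. The vehicle call of *Vldlr* was lost without baseline replicate 1 or 3 or any 1 of the vehicle libraries.

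Of the 6 HIF factors and regulators tested, 1 rose and 2 fell with vehicle, and 1 rose and 1 fell with NSC. The 3 calls with vehicle became 1 without baseline replicate 1 or 2 or vehicle replicate 1 and 4 without any 1 of the NSC libraries, and the 2 with NSC became 4 without NSC replicate 3. *Vhl*, which marks HIF-alpha for destruction, rose by 0.78 and 1.13 on the log2 scale (adjusted p = 0.00836 and 0.00079). The prolyl hydroxylase *Egln2* fell by 0.54 and 0.90, or by 0.44 and 0.36 with the GC correction. *Arnt*, the partner of the HIF-alpha proteins, fell by 0.46 with vehicle (adjusted p = 0.0358). The vehicle calls of *Egln2* and *Arnt* were lost without any 1 of the baseline libraries. *Hif1a* lay between 24 and 50.4 CPM in all 9 livers and was not called. HIF proteins are set mainly by their stability, which these counts do not measure. Of 8 other VEGF ligands and receptors tested, *Vegfb* fell by 1.13 and 1.43, or by 1.04 and 0.89 with the GC correction. The main VEGF receptor *Kdr* fell by 0.92 with vehicle (adjusted p = 0.0134). The co-receptor *Nrp1* rose by 0.68 and 1.04, which with the GC correction were 0.48 (adjusted p = 0.0762, not called) and 0.54 (adjusted p = 0.0453). The 3 calls of this list with vehicle became 1 without vehicle replicate 3, and the 2 with NSC became 4 without NSC replicate 1. No gene of these 7 lists was called between NSC and vehicle.

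**Figure D4:**
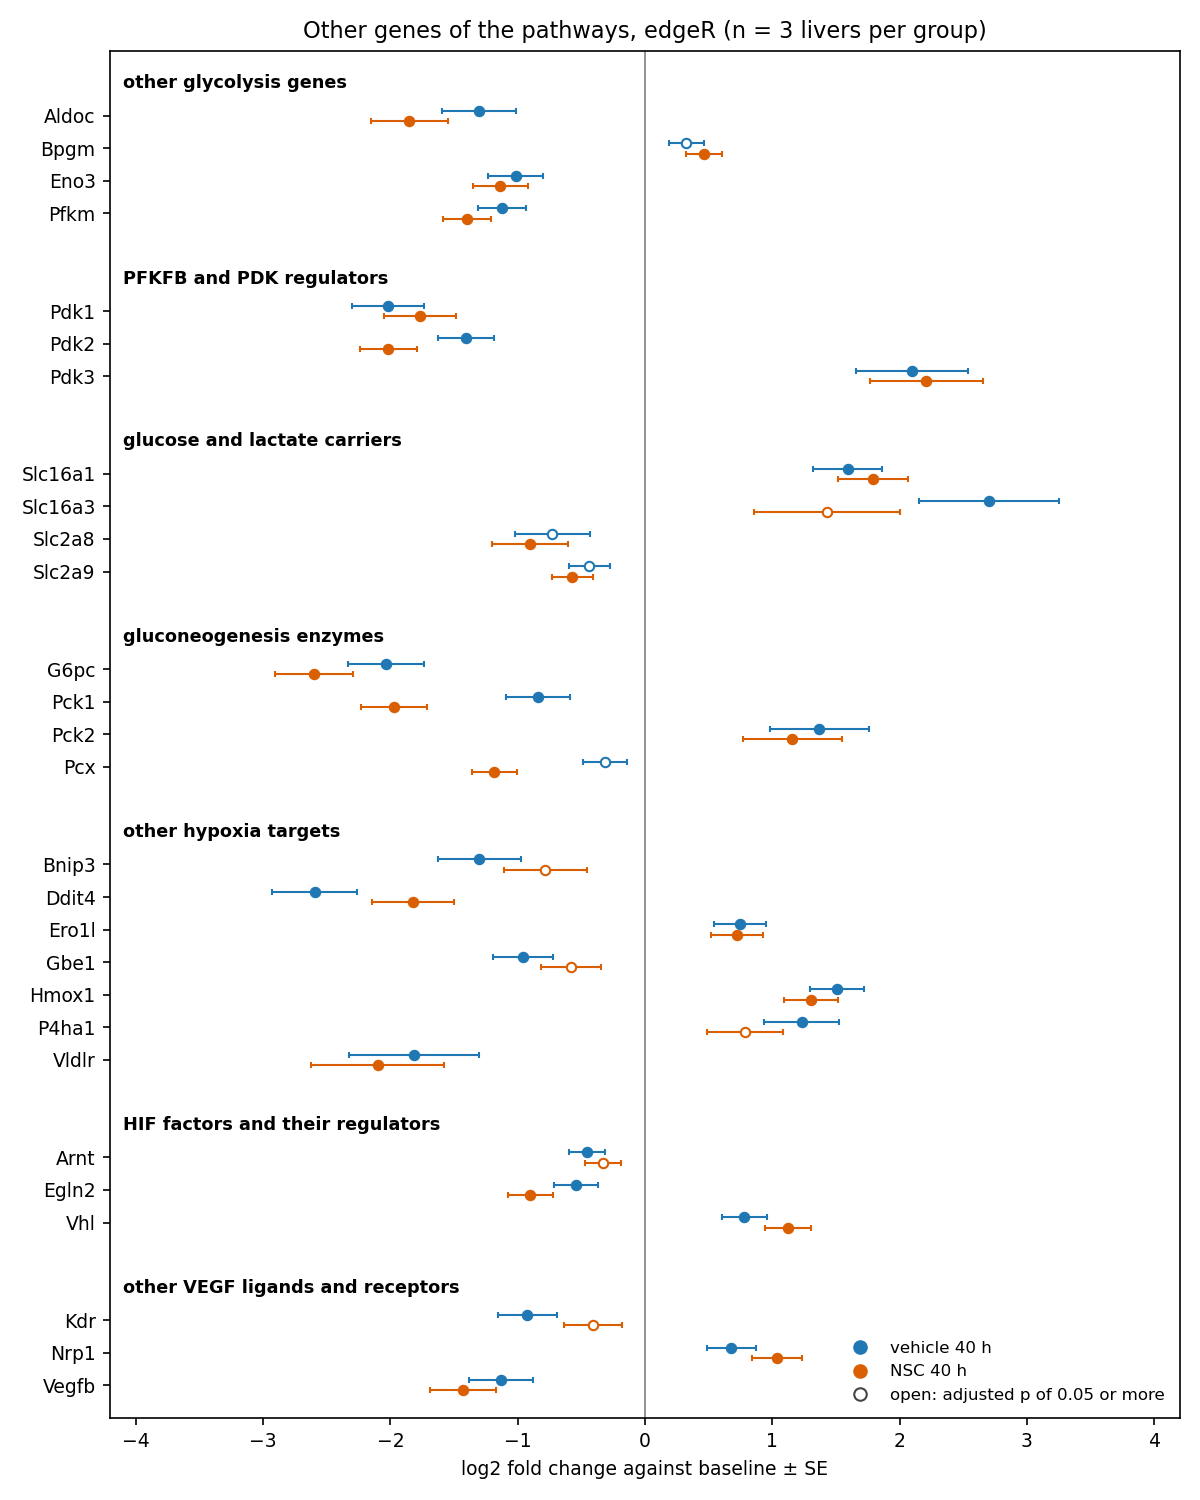
Log2 fold change ± SE against baseline of other genes of the same pathways, drawn from up to 3 called genes in each direction from each list and comparison, for vehicle and NSC remnants (n = 3 livers per group), filled where the adjusted p was under 0.05. Lactate carriers, *Pdk3*, *Pck2*, *Hmox1* and *Vhl* lay to the right, while *G6pc*, *Pdk1*, *Pdk2*, *Ddit4*, *Pfkm* and *Vegfb* lay to the left in both groups.

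Markers of other cells were read beside the background, 12.7% of genes called higher and 11.0% lower with vehicle, and 18.2% and 16.5% with NSC. The 10 stellate cell markers summed to 219 to 254 CPM at baseline, 358 to 442 CPM in vehicle remnants and 270 to 452 CPM in NSC remnants. NSC replicate 1 (452 CPM) stood above NSC replicates 2 and 3 (270 and 285 CPM). Of the 10 markers, 6 were called higher with vehicle and 3 with NSC, or 5 and 1 with the GC correction. Of 7 cholangiocyte markers tested, 5 and 3 were called higher, with all 8 summing to 38.9 to 42.0, 78.4 to 118 and 81.2 to 124 CPM. The 13 macrophage markers summed to 266 to 363, 252 to 455 and 433 to 736 CPM, with NSC replicate 1 the highest. Vehicle remnants overlapped baseline in this sum. Of the 13, 2 were called higher with vehicle, near the background, and 5 with NSC. The 10 sinusoidal endothelial markers, of cells that carry *Kdr*, summed to 258 to 277, 172 to 256 and 180 to 315 CPM. NSC replicate 1 (315 CPM) lay above every baseline liver in this sum, whereas NSC replicates 2 and 3 (180 and 199 CPM) lay below every baseline liver. In each remnant group 2 of the 10 were called lower, with NSC near the background. Of 6 neutrophil markers tested, 2 were called higher with vehicle and 4 with NSC, or 2 and 3 with the GC correction. All 8 summed to only 3.88 to 11.8, 10.1 to 21.6 and 13.7 to 23.2 CPM. Of 6 T and B lymphocyte markers tested, 2 were called lower with vehicle and 1 with NSC. Of 5 erythroid markers tested, 1 was called lower in each remnant group. No list had a marker at 0 in all libraries. *Pkm* and *Hk2* are also expressed in such cells, and the part of any shift in cell types in the levels of the 10 genes was not tested.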

How the data were processed

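Paired-end reads of whole liver mRNA (TruSeq Stranded mRNA kit) were aligned by the authors with STAR within MAP-RSeq and assigned to genes with featureCounts of Subread 1.5.1. The deposited table gives raw gene counts per library and an FPKM value, which the authors made from the same counts (largest relative difference on recomputation 4.96e-10). A human build is named in the sources, whereas the table holds mouse identifiers and GRCm38 coordinates. Whether counting used strand is not given in the sources used here. The 37 mitochondrial genes listed had 0 counts in every library.

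Counts of all 9 libraries were fitted once with edgeR 4.0.16 in R 4.3.3 (TMM factors, filterByExpr, glmQLFit with robust estimation, glmQLFTest), with the group as the only term. P-values were adjusted over 15024 genes by the Benjamini-Hochberg method, and 95% intervals used the t distribution with the degrees of freedom of each gene. The GC correction used offsets from a loess curve (span 0.5) per library. The curve was fitted to each gene's log2 CPM minus its mean over the 9 libraries, against transcript GC content, known for 99.2% of tested genes. Shares within pairs were taken from FPKM and compared by two-sided exact permutation. The fit was tested on simulated data. Precision rests on 3 livers per group and on depth. The edgeR p-values set each group difference against a spread between livers that was estimated over all 9 libraries. No libraries were duplicates, as the chi-square per gene within groups was 24.9 to 151.

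Named were all 10 genes, the partner of each pair and, from each wider list and comparison, up to 3 called genes per direction with the smallest adjusted p. Some genes and pairs that this rule names are not reported here. *Hif1a*, *Alb* and *Mki67* were named after their values were seen. The 10 genes and the lists were chosen with earlier results of these data known. Alternatives were RLE factors, library size only, other filters on low counts, DESeq2 1.42.0, a fit of only the 2 groups, a term for the replicate number, GC correction, a fold threshold, shares of raw counts and each library left out. The same-numbered libraries of different groups had correlations between -0.048 and 0.134, and differently numbered ones between -0.115 and 0.066. The same-numbered values tended higher, but the ranges overlapped, which does not decide if the numbers pair the samples. The sources state no pairing, so the numbers were not taken as pairs.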

Additional observations from a re-analysis of the deposited data

Results flagged for a closer look

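*Aldoa* moved apart in the remnants in TMM-scaled CPM, since all 3 vehicle livers lay above and all 3 NSC livers below every baseline liver. In FPKM, which has no TMM scaling, NSC replicate 3 (28.15) lay just above baseline replicate 3 (28.14). The difference between the 2 effects was itself tested as NSC against vehicle and was -0.59 on the log2 scale (SE 0.15, unadjusted p = 0.00201, edgeR adjusted p = 0.0949), which did not pass the threshold. It was -0.28 with the GC correction (adjusted p = 0.501). *Aldoa* transcripts held 56.9% GC.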

How the results depend on the processing

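In vehicle against baseline 4 members were called, and 3 to 5 when 1 library was left out. In NSC against baseline 6 were called, and 3 to 8 when 1 library was left out, with the 3 reached without baseline replicate 1. Requiring an absolute log2 fold change over 1.5 left 0 members in both. In NSC against vehicle 0 members were called, 1 (*Pfkl*) when all genes with at least 1 count were kept, 3 with DESeq2, and 0 to 2 when 1 library was left out. Over all genes this comparison gave 6 calls, 725 with DESeq2, 0 with the GC correction and 0 to 994 when 1 library was left out. With the replicate number as a block, a pairing that the sources do not state, 3, 5 and 0 members were called. *Eno1* with vehicle and *Aldoa* with NSC no longer passed. The rise of the *Pkm* share with vehicle was 41.4 percentage points, 37.3 from raw counts, and 39.1 to 42.9 when 1 library was left out.

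Values near 0 changed sign. *Hk2* in NSC against vehicle was 0.12, and ran from -0.35 (without NSC replicate 1) to 0.37 when 1 library was left out. *Pfkfb3* in vehicle against baseline was 0.31, and ran from -0.12 (without baseline replicate 3) to 1.21 (without baseline replicate 2). *Pgk1* in vehicle against baseline was -0.048 with the GC correction and ran from -0.083 to 0.12 when 1 library was left out. In NSC against baseline and in NSC against vehicle it ran from -0.044 to 0.13 and from -0.081 to 0.15. *Slc2a1* in vehicle against baseline was -0.0032 with RLE factors, -0.00041 with DESeq2 and -0.047 with the GC correction, and ran from -0.086 to 0.16 when 1 library was left out. None of these was called in either direction, and the cause was not tested. Depth limited *Hk2* and *Slc16a3*, with at most 41 and 13 counts in a baseline library, and *Pdk3*, whose baseline counts were also low.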
